A study of Mus musculus with 12 samples.

Results

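The 9 genes studied here encode aldehyde dehydrogenases (Aldh) and were measured in mammary glands from lactating mice with a disrupted gene for butyrophilin 1a1 (Btn1a1), found on the apical membrane and the milk fat globule, and in glands from wild-type mice. They were taken by symbol, and all 9 named members were among the 11834 genes of the deposited table, which holds 15 genes of the Aldh name in all. The names were selected on the log2 values of this table, with its knockout against wild-type differences already known and no threshold stated. Those differences are therefore given as a description, without a test, and no call of a member is read.

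Polyadenylated RNA was sequenced from 12 C57BL/6 mice in lactation 1, with 1 library per mouse. The 7 Btn1a1-/- (KO) glands were taken on day 10 of lactation, except KO replicate 3 on day 8 and KO replicate 4 on day 11. The 5 wild-type (WT) glands were taken on day 10, except WT replicate 2 on day 9 and WT replicate 3 on day 11. Per the labels, mutant lines were kept by mating heterozygotes apart from the wild-type cages, and mice ate 1 of 2 diets, a Formulab or an NIH open formula. The sources used here give neither the diet of each mouse nor the construction of the null allele, so genotype, line and diet cannot be told apart. The gland was homogenised whole. Fewer cells of a type and less RNA per cell can therefore not be told apart. Values are read counts divided by the library total in M reads, on a log2 scale (log2 CPM), and were made equal in distribution between libraries by the authors. Btn1a1 ran from 5.10 to 6.02 log2 CPM in KO libraries, against 11.03 to 11.23 in WT libraries, which fits the labels. Read totals are not in the table. Estimated from the spacing of tied values, they ran from about 23.2 to 34.7 M reads in KO and from 17.1 to 30.4 M in WT, a rough figure.

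Aldehyde dehydrogenases oxidise aldehydes to carboxylic acids with NAD+ or NADP+. The aldehydes come from lipid peroxidation, from the breakdown of amino acids and amines, from ether lipids and sphingolipids, and from vitamin A, whose aldehyde (retinal) is turned into retinoic acid. The enzymes sit in mitochondria, cytosol or membranes of the endoplasmic reticulum, and their substrates overlap only in part. The lactating mammary epithelium handles large amounts of lipid and amino acids and takes up vitamin A for milk.

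Of the 9 genes, 7 had a lower mean in KO and 2 a higher one, where 6553 of all 11834 genes had a lower one. All 7 KO libraries lay below the WT mean for Aldh2, Aldh6a1, Aldh3a2 and Aldh7a1 and above it for Aldh1a3. For Aldh16a1, Aldh5a1, Aldh3b1 and Aldh9a1 the KO libraries lay on both sides of it. The median difference of the members was -0.29 log2, against -0.03 over all genes. That median is the value of Aldh3b1, a gene close to the limit of detection, and it was -0.15 without KO replicate 7. All KO libraries lay below all those of WT for 2 of the 9 genes, as they did for 2.74% of all genes, and above them for 1, as for 2.69% of all genes.

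**Figure D1:**
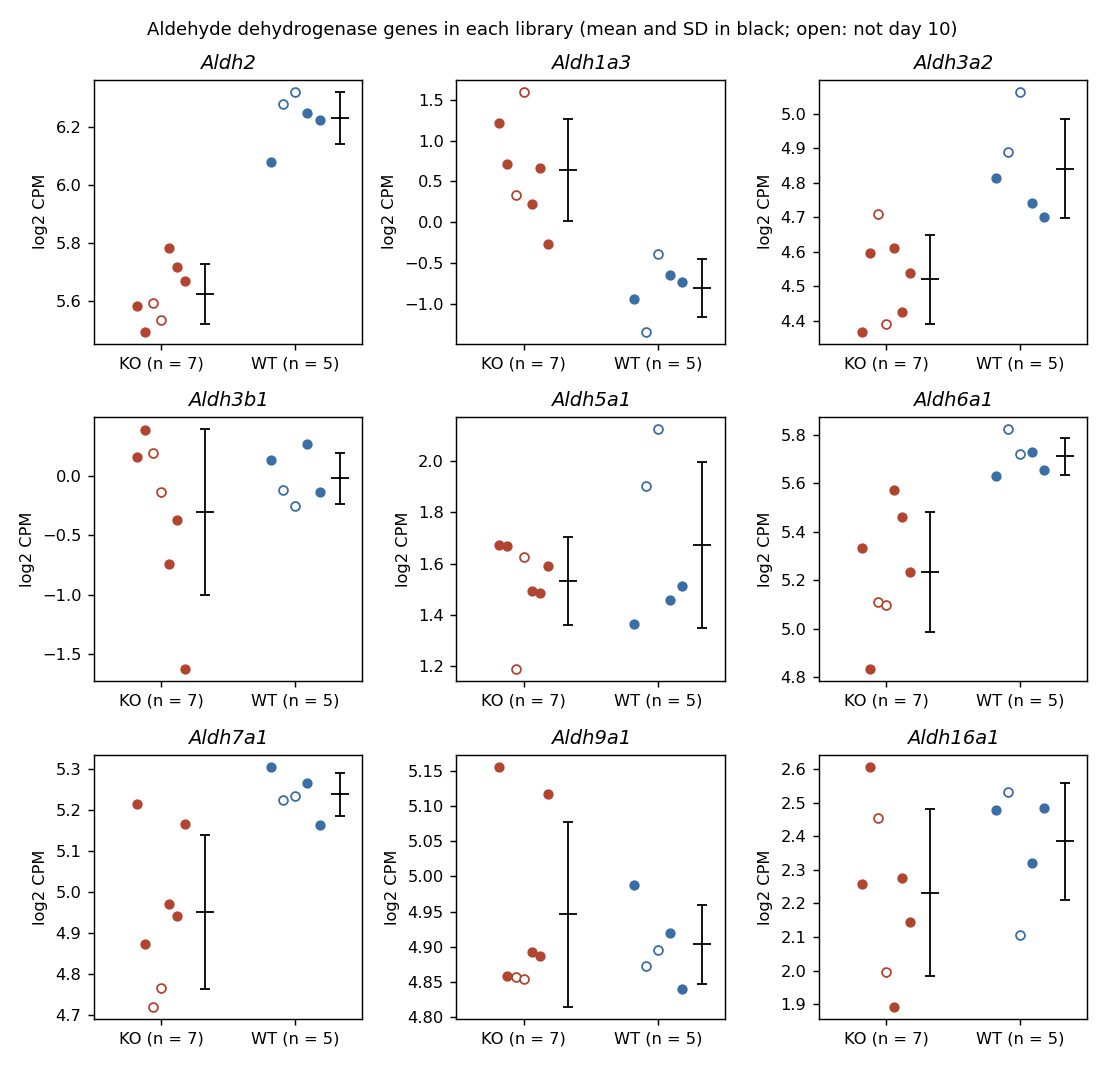
Level of each of the 9 genes in every library (vertical axes, log2 CPM, each with its own range), KO on the left and WT on the right. Each point is 1 mouse, open points mark glands not taken on day 10, and black bars give the mean and SD. Points of the 2 groups are separate for Aldh2, Aldh6a1 and Aldh1a3 and mixed for Aldh9a1, Aldh5a1, Aldh3b1 and Aldh16a1.

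Among enzymes of lipid-derived and small aldehydes, Aldh2 and Aldh3a2 were lower in KO and Aldh3b1 was barely expressed. Aldh2, the mitochondrial enzyme that clears acetaldehyde and the lipid peroxidation product 4-hydroxynonenal, lies on mouse chromosome 5 from 121566027 to 121593824 (mm10, minus strand). It ran from 5.49 log2 CPM over a median of 5.59 to 5.78 in the 7 KO libraries, against 6.08, 6.28, 6.32, 6.25 and 6.22 in WT replicates 1 to 5. Every KO library was below every WT library. The spread was alike in both groups, with 5.62 ± 0.10 in KO (SD, n = 7) and 6.23 ± 0.09 in WT (SD, n = 5). The difference was -0.61 log2 (SE 0.07), so the KO level was 65.7% of the WT level. On the linear scale the means were 49.4 CPM in KO and 75.2 CPM in WT. Leaving out any 1 library or changing the fit kept the difference between -0.64 and -0.54 log2.

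Aldh3a2 encodes the fatty aldehyde dehydrogenase of the endoplasmic reticulum membrane, which oxidises long-chain aldehydes from sphingolipids, ether lipids and phytol, and lies on chromosome 11 from 61223417 to 61267464. It ran from 4.37 over a median of 4.54 to 4.71 log2 CPM in KO, against 4.81, 4.89, 5.06, 4.74 and 4.70 in WT replicates 1 to 5. Of the KO libraries 6 lay below all WT libraries, and KO replicate 3, the gland of day 8, lay just inside the WT range. The means were 4.52 ± 0.13 in KO (SD, n = 7) and 4.84 ± 0.14 in WT (SD, n = 5), a difference of -0.32 log2 (SE 0.08). Under the alternatives tried the difference lay between -0.36 and -0.24 log2.

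Aldh3b1, a membrane-attached enzyme of medium- and long-chain aldehydes on chromosome 19 from 3913491 to 3929808, was close to the limit of detection. It ran from -1.63 over -0.14 to 0.39 log2 CPM in KO, against 0.13, -0.11, -0.25, 0.28 and -0.14 in WT replicates 1 to 5. By the estimated depth this is about 7.49 to 38.9 reads per KO library and 20.7 to 33.4 per WT library. The groups overlapped, with KO replicates 5, 6 and 7 below all WT libraries and KO replicate 2 above them. The difference of -0.29 log2 (SE 0.32) was smaller than its error, and no difference was detectable at this depth.

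The retinal enzyme went the other way. Aldh1a3 makes retinoic acid from retinal, and in human breast it is known as a major source of the aldehyde dehydrogenase activity used to sort progenitor-like cells. It lies on chromosome 7 from 66390890 to 66427517 (minus strand). It ran from -0.26 over 0.66 to 1.60 log2 CPM in KO, against -0.93, -1.34, -0.39, -0.64 and -0.73 in WT replicates 1 to 5. Every KO library lay above every WT library, and KO replicates 4 and 1 were highest while KO replicate 7 was lowest of its group. The means were 0.64 ± 0.62 in KO (SD, n = 7) and -0.81 ± 0.35 in WT (SD, n = 5), a difference of 1.45 log2 (SE 0.30) or 2.73-fold. In linear terms the gene stood at 1.69 CPM in KO and 0.585 CPM in WT, or about 19.3 to 92.2 reads per KO library and 11.0 to 19.6 per WT library. Its log2 difference lay between 1.28 and 1.62 under the alternatives tried. A filter on a mean of at least 1 log2 CPM removes the gene. Its WT mean of -0.81 lay below that of Aldh3b1 (-0.02 log2 CPM), so Aldh1a3 too was close to the limit of detection there. The gene filter of the authors is not stated, so whether its KO values alone brought Aldh1a3 in cannot be told.

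The amino acid enzymes split. Aldh6a1, the mitochondrial methylmalonate semialdehyde dehydrogenase of valine and thymine breakdown, lies on chromosome 12 from 84430717 to 84451004. It ran from 4.83 over 5.23 to 5.57 log2 CPM in KO, against 5.63, 5.82, 5.72, 5.73 and 5.66 in WT replicates 1 to 5. No KO library reached the WT range, and the KO values were more spread. The means were 5.23 ± 0.25 in KO (SD, n = 7) and 5.71 ± 0.07 in WT (SD, n = 5), a difference of -0.48 log2 (SE 0.11), or 71.9% of the WT level. KO replicate 2 was lowest and KO replicate 5 came closest to WT.

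Aldh7a1 (antiquitin) oxidises the semialdehyde of lysine breakdown and betaine aldehyde, and lies on chromosome 18 from 56509687 to 56572951. It ran from 4.72 over 4.94 to 5.22 log2 CPM in KO, against 5.31, 5.23, 5.23, 5.27 and 5.16 in WT replicates 1 to 5. KO replicates 1 and 7 lay within the WT range and the other 5 KO libraries below it. The difference was -0.29 log2 (SE 0.09), with 4.95 ± 0.19 in KO (SD, n = 7) and 5.24 ± 0.05 in WT (SD, n = 5). It lay from -0.33 to -0.25 log2 when each of the 12 libraries was left out in turn.

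Aldh5a1, the mitochondrial succinate semialdehyde dehydrogenase that ends the breakdown of GABA, lies on chromosome 13 from 24907579 to 24937661, 1.44 Mb from Btn1a1. It ran from 1.19 over 1.59 to 1.67 log2 CPM in KO, against 1.36, 1.90, 2.12, 1.46 and 1.51 in WT replicates 1 to 5. The 2 highest WT values were those of days 9 and 11, and the lowest KO value that of day 8. KO replicate 4, of day 11, held 1.63 and lay within the range of the day 10 KO libraries. The difference was -0.14 log2 (SE 0.15) over all libraries and turned to 0.14 (SE 0.14) with day 10 libraries alone (5 KO and 3 WT). With lactation day as a covariate over all libraries it was -0.12 (SE 0.14). Of 52 measured genes within 10 Mb of Btn1a1, other than Btn1a1 itself, 2 had an adjusted p under 0.05 in the limma fit over all genes, or 3.85%, against 9.36% of all genes.

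Aldh9a1, which oxidises 4-trimethylaminobutyraldehyde on the way to carnitine, lies on chromosome 1 from 167349991 to 167368532 (plus strand). It ran from 4.85 over 4.89 to 5.16 log2 CPM in KO, against 4.99, 4.87, 4.90, 4.92 and 4.84 in WT replicates 1 to 5. KO replicates 1 and 7 stood above all WT libraries, and the other 5 lay among them. The difference was 0.04 log2 (SE 0.07), between 0.01 and 0.07 under the alternatives tried.

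Aldh16a1 encodes a family member that in mammals lacks the catalytic cysteine and is known to bind the protein maspardin (Spg21). The gene lies on chromosome 7 from 45140684 to 45154584. It ran from 1.89 over 2.26 to 2.61 log2 CPM in KO, against 2.48, 2.53, 2.11, 2.32 and 2.49 in WT replicates 1 to 5. The groups overlapped, with 2 KO libraries below and 1 above the WT range, and the difference was -0.15 log2 (SE 0.13). Spg21, a gene singled out after its values were known, showed a difference of 0.16 log2 (SE 0.09, limma adjusted p = 0.267).

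**Figure D2:**
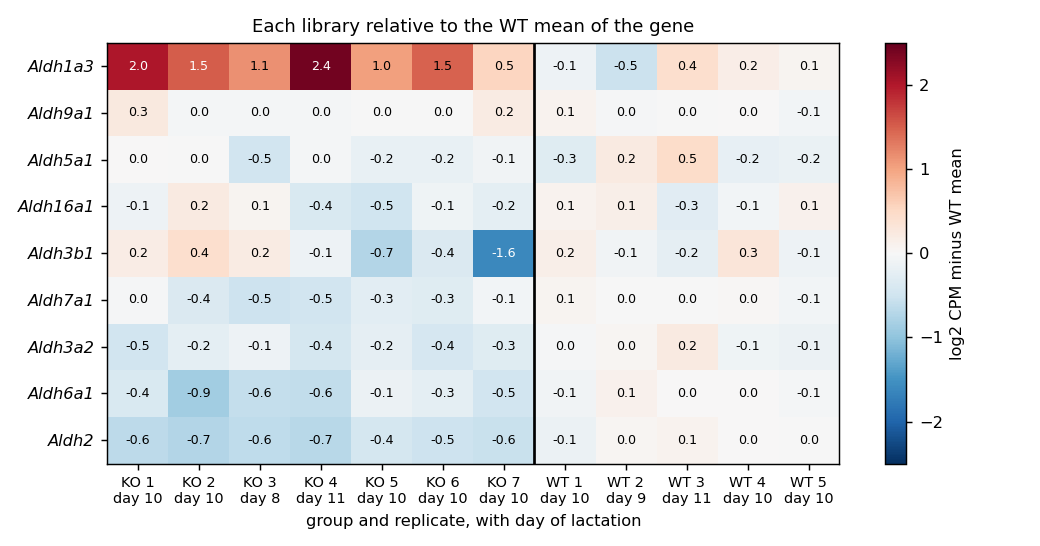
Level of each gene (rows) in each library (columns, KO left of the line, with day of lactation) as log2 CPM minus the WT mean of that gene. Aldh1a3 is above the WT mean in all 7 KO columns, while Aldh2, Aldh6a1, Aldh3a2 and Aldh7a1 are below it in all 7. Values are rounded to 1 decimal.

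The knockout mice did not share 1 order across the genes, as the map of libraries by gene shows. Each KO mouse had between 3 and 6 of the 9 genes below all WT mice, 6 in KO replicate 5 and 3 in KO replicate 1. The same count was not taken over all genes, and the members were chosen on this contrast. These counts are therefore a description only. KO replicate 4, the gland of day 11, had the highest Aldh1a3. KO replicate 2 had the lowest Aldh2 and Aldh6a1. KO replicate 7 had both the lowest Aldh1a3 and the lowest Aldh3b1 of the KO group, while its Aldh9a1 and Aldh7a1 were second highest of that group. In day 10 libraries alone (5 KO and 3 WT), the difference of Aldh2 was -0.54 log2 (SE 0.09), that of Aldh6a1 -0.38 (SE 0.14) and that of Aldh1a3 1.28 (SE 0.33). Aldh3a2 differed there by -0.24 (SE 0.09) and Aldh7a1 by -0.21 (SE 0.10).

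Stretches of DNA at the start of some of these genes are shown as examples. RefSeq windows of 300 bases (GRCm38.p6, the mm10 assembly), 250 before and 50 after the start site, were held for 6 of the 9 members, namely Aldh3a2, Aldh3b1, Aldh5a1, Aldh6a1, Aldh9a1 and Aldh16a1. Aldh3a2 (chr11:61267137-61267436, minus strand) and Aldh6a1 (chr12:84450975-84451274, minus strand) lay lower in KO, and Aldh9a1 (chr1:167349741-167350040, plus strand) had a difference near 0. For these Aldh3a2 and Aldh6a1 windows 0 GENCODE transcripts of the gene held the 50 bases after the start site. Their start sites lay 278 and 20 bases from the GENCODE gene start. Capitals mark matches, read on either strand, to the motif CCAAT, to the motif GGGCGG and to the palindrome CACGTG.
Aldh3a2: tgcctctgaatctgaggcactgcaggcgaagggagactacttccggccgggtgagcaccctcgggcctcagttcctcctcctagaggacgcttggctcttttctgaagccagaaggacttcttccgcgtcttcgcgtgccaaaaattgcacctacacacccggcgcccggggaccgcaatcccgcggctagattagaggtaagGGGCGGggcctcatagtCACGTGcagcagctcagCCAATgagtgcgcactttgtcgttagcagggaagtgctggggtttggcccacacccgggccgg
Aldh6a1: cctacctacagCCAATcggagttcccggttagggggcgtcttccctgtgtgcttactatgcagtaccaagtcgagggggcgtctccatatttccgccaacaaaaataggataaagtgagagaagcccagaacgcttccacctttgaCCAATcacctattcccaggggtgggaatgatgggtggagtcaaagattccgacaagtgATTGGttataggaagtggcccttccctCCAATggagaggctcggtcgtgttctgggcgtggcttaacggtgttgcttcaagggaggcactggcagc
Aldh9a1: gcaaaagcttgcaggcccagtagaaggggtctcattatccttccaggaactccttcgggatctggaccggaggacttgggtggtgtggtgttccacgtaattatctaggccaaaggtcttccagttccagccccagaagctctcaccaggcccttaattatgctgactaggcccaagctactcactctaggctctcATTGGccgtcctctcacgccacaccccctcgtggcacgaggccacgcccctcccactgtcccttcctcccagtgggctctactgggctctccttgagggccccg
The printed Aldh6a1 window held 4 CCAAT matches, whose first bases lay at -239, -104, -46 and -19 from the start site. A second Aldh6a1 window, not printed, held CCAAT matches at -109 and 36. The Aldh3a2 window held 1 match each to GGGCGG at -47, CACGTG at -30 and CCAAT at -13, and the Aldh9a1 window held 1 CCAAT match at -54. No 2 of these matches shared a base. Of all 32851 windows 37.4% hold CCAAT, 35.7% GGGCGG and 7.15% CACGTG. Among the 7 windows of members CCAAT matched in 6, GGGCGG in 3 and CACGTG in 1. GGGCGG also matched in the unprinted windows of Aldh16a1 and Aldh3b1, and CCAAT in those of Aldh16a1 and Aldh5a1, genes whose groups overlapped. A search of both strands for TATAAA and TGANTCA found no match in the 7 windows of members, against 13.6% and 7.81% of all windows. TGACNNNGC and TTCNNNGAA each matched in the Aldh9a1 window, against 12.4% and 8.30% of all windows. A match is a match of letters only.

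Levels of different genes were compared per kilobase of exon, since longer transcripts give more reads. In KO the order of the means was Aldh2 (3.57 log2 CPM per kb), Aldh6a1 (3.47), Aldh9a1 (3.44), Aldh7a1 (2.86), Aldh3a2 (2.11), Aldh16a1 (0.28), Aldh5a1 (-0.96), Aldh3b1 (-1.25) and Aldh1a3 (-1.51). In WT the order was the same, with Aldh2 at 4.17 log2 CPM per kb, Aldh6a1 at 3.95 and Aldh9a1 at 3.40, and with Aldh1a3 last at -2.96. The 3 top genes had overlapping ranges in KO, where Aldh2 exceeded Aldh6a1 in 4 of 7 libraries and Aldh6a1 exceeded Aldh9a1 in 2 of 7, so their order there is one of means only. In WT Aldh2 exceeded Aldh6a1 in 5 of 5 libraries although their ranges overlapped, and Aldh6a1 and Aldh9a1 ranges did not overlap. Aldh1a3 was separate from Aldh3b1 in WT and overlapped it in KO. Summed per kilobase, the 9 genes came to 48.3 ± 3.34 CPM per kb in KO (SD, n = 7) and 61.0 ± 1.90 CPM per kb in WT (SD, n = 5). Aldh2 made up 24.7% ± 1.11 of that sum in KO and 29.7% ± 1.27 in WT (SD).

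**Figure D3:**
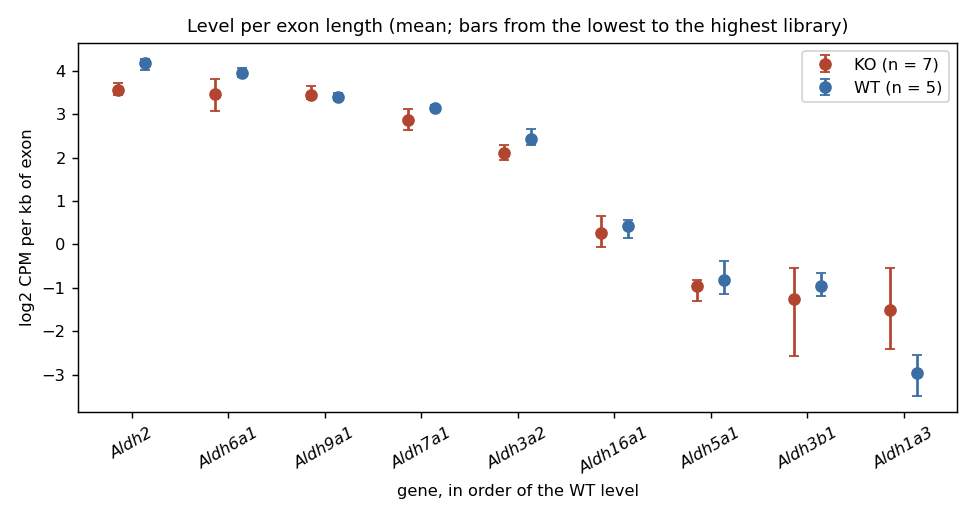
Mean level per kilobase of exon (vertical axis, log2 CPM per kb) of the 9 genes, in order of the WT level, with KO left of WT for each gene and bars from the lowest to the highest library. The bars of Aldh2, Aldh6a1 and Aldh9a1 overlap in KO, and Aldh1a3 has the lowest mean in both groups, at -1.51 in KO and -2.96 in WT.

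Of the 12 other aldehyde dehydrogenases listed, 6 were in the table, and 4 of them fell in KO while 0 rose, or 66.7% lower, against 4.52% lower and 4.84% higher of all genes. They serve one-carbon, proline and retinal chemistry. This list and those that follow were chosen with earlier results of these data known. Their shares are therefore a description and no independent support. Aldh1l2, a mitochondrial folate enzyme, ran from 2.60 to 4.62 log2 CPM in KO, against 5.16 to 5.60 in WT, a difference of -1.44 (SE 0.31, limma adjusted p = 0.0162). Aldh18a1, the first enzyme of proline synthesis, was at 6.33 ± 0.20 log2 CPM in KO (SD, n = 7) and 7.01 ± 0.10 in WT (SD, n = 5), a difference of -0.69 (SE 0.10, limma adjusted p = 0.00188). Both were lower in every KO library than in any WT library. So was Aldh4a1, which ends proline breakdown, at -0.51 log2 (SE 0.10, limma adjusted p = 0.00736). Aldh1l1, the cytosolic folate enzyme, differed by -0.55 (SE 0.13, limma adjusted p = 0.0184), with 6 of 7 KO libraries below all WT libraries. With day 10 libraries alone Aldh4a1 and Aldh1l1 were no longer past the threshold (limma adjusted p = 0.107 and 0.141), and 2.26% of all genes passed there.

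Aldh1a1, a retinal enzyme, and Aldh1a7 did not pass. Aldh1a1 averaged 1.70 ± 0.62 log2 CPM in KO (SD, n = 7) and 1.33 ± 0.60 in WT (SD, n = 5), a difference of 0.37 (SE 0.32, limma adjusted p = 0.490). Aldh1a7, its close paralog, averaged 1.83 ± 0.74 in KO and 2.41 ± 0.41 in WT, a difference of -0.58 (SE 0.33, limma adjusted p = 0.285). The pair can share reads, so the split between them is uncertain.

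**Figure D4:**
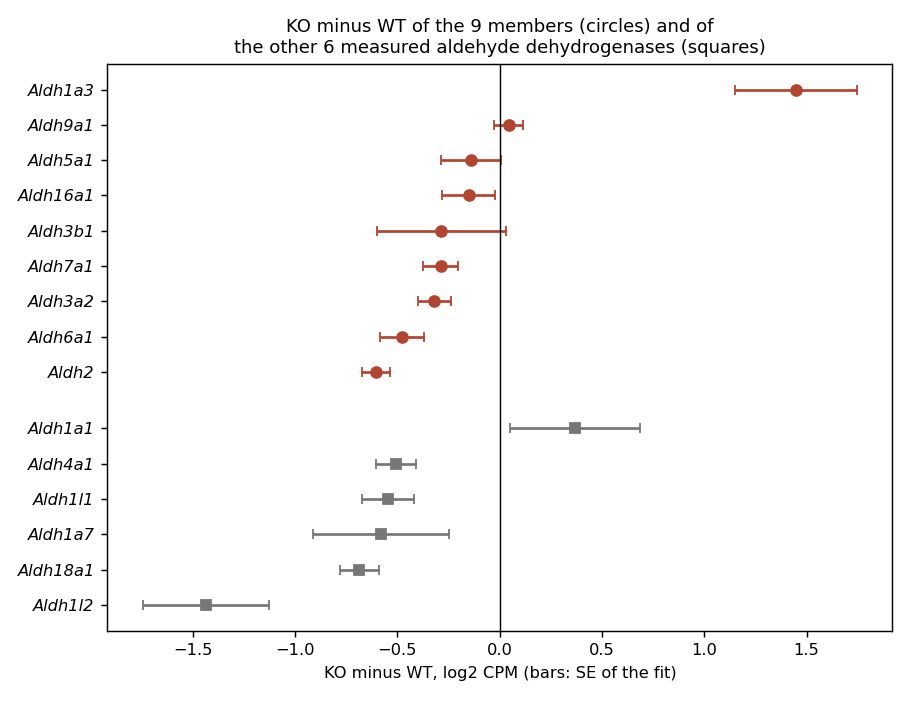
KO minus WT difference (horizontal axis, log2 CPM, bars give the SE of the fit) of the 9 members as circles and of the other 6 measured aldehyde dehydrogenases as squares. Aldh1a3 stands at 1.45 and Aldh1l2 at -1.44, the ends of the range, and Aldh9a1 at 0.04.

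Genes that handle vitamin A around Aldh1a3 moved in both directions. Of 27 listed genes of retinoid handling and signalling 15 were measured, and 2 rose, 1 fell and 12 did not pass, with a median of -0.10 log2. The shares are 13.3% higher and 6.67% lower, against 4.84% and 4.52% of all genes. Lrat, which stores retinol as esters, was at 5.94 ± 0.77 log2 CPM in KO (SD, n = 7) and 4.50 ± 0.47 in WT (SD, n = 5), a rise of 1.44 (SE 0.37, limma adjusted p = 0.0340). Of the KO libraries 6 lay above all WT libraries. Rara, a nuclear receptor of retinoic acid, rose by 0.70 (SE 0.20, limma adjusted p = 0.0394) and was again above the WT range in 6 of 7 KO libraries. Dhrs3, which reduces retinal to retinol, fell to 2.09 ± 0.28 log2 CPM in KO (SD, n = 7), against 2.80 ± 0.28 in WT (SD, n = 5), a difference of -0.71 (SE 0.15, limma adjusted p = 0.0123). The Dhrs3 call held without any 1 library. The Lrat call ended without KO replicate 1 or 7 or WT replicate 1, 2, 3 or 4, with a limma adjusted p of up to 0.0769. That of Rara was kept without KO replicate 4 or 5 and ended without each of the other 10, with a limma adjusted p of up to 0.0882. With day 10 libraries alone Lrat differed by 1.64 and Rara by 0.65, and neither passed (limma adjusted p = 0.0578 and 0.0635).

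Genes of branched-chain amino acid breakdown, the route in which Aldh6a1 serves valine, stood lower in KO for part of the list. Of 20 measured genes of 22 listed, 9 fell in KO, 0 rose and 11 did not pass, or 45.0% lower against 4.52% of all genes. The list was chosen with earlier results known, so this share is a description only. All 20 differences were negative, against 6553 of the 11834 genes, and their median was -0.25 log2, against -0.03 over all genes. Bckdha, a subunit of the branched-chain ketoacid dehydrogenase, ran from 4.96 to 5.74 log2 CPM in KO, against 5.79 to 6.32 in WT, a difference of -0.62 (SE 0.14, limma adjusted p = 0.0159). Pcca, a subunit of propionyl-CoA carboxylase, differed by -0.46 (SE 0.11, limma adjusted p = 0.0206). Mut, the methylmalonyl-CoA mutase downstream of propionyl-CoA, differed by -0.33 (SE 0.08, limma adjusted p = 0.0224). Bckdha, Pcca and Mut were each lower in every KO library than in any WT library.

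The steps nearest Aldh6a1 in the valine route, named after their values were seen, did not all pass. Acad8, the isobutyryl-CoA dehydrogenase, fell by 0.32 (SE 0.09, limma adjusted p = 0.0316), and Echs1, the enoyl-CoA hydratase of the next step, fell by 0.29 (SE 0.08, limma adjusted p = 0.0318). Hibch and Hibadh, which act just before Aldh6a1, differed by -0.07 (SE 0.10, limma adjusted p = 0.688) and -0.13 (SE 0.06, limma adjusted p = 0.132). The count of 9 genes rested on several libraries. It was 5 without KO replicate 2, 5 without WT replicate 2, 3 or 5, and 4 without WT replicate 4. It was 6 without KO replicate 4 or WT replicate 1. With day 10 libraries alone 0 of the 20 genes passed in limma, 8 had an unadjusted p under 0.05, and 16 of the 20 differences were negative, with a median of -0.18 log2. The Pcca call ended without WT replicate 2 or 4 (limma adjusted p of up to 0.0562) and that of Mut without WT replicate 4 (limma adjusted p = 0.0536).

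**Figure D5:**
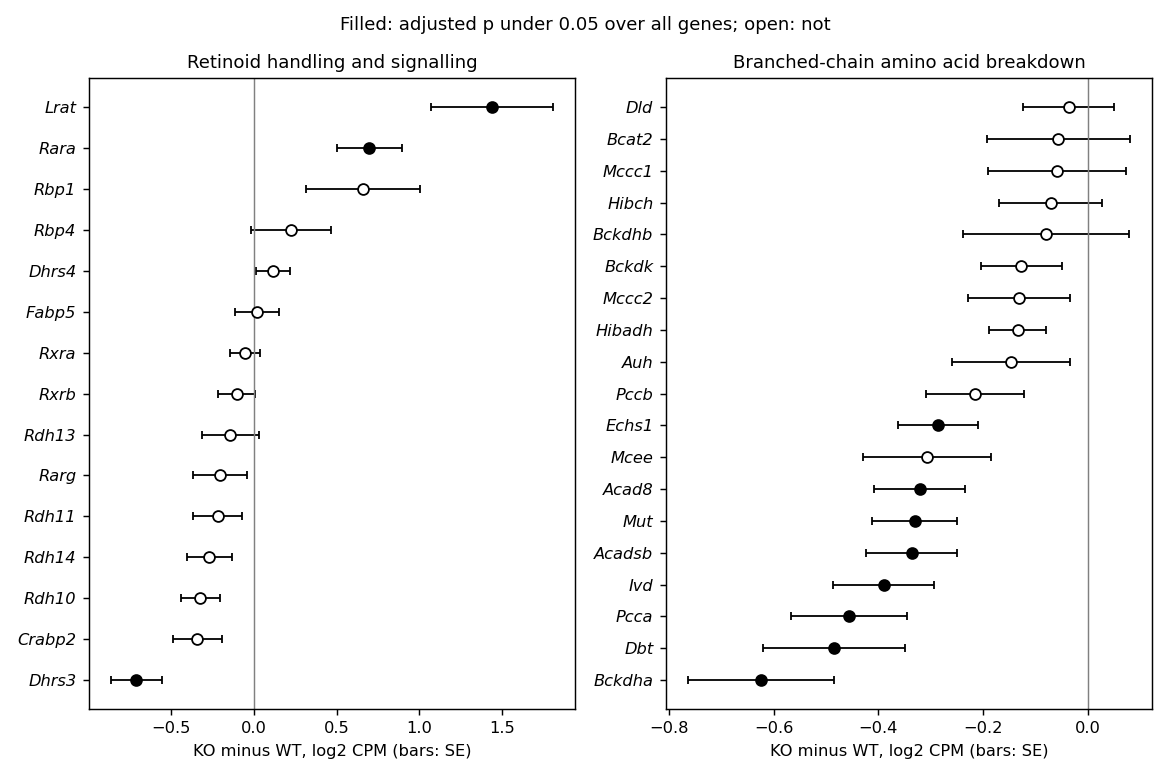
KO minus WT difference (horizontal axes, log2 CPM, bars give the SE) of the measured genes of retinoid handling and signalling (left, 15 genes) and of branched-chain amino acid breakdown (right, 19 of the 20 measured genes). Filled points have an adjusted p under 0.05 over all genes. The retinoid genes spread to both sides of 0, from Dhrs3 at -0.71 to Lrat at 1.44, while all 19 genes on the right lie below 0.

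A list of genes beside the other members holds makers of their substrates, other steps of their routes and the binding partner Spg21. Of 33 listed genes 24 were measured, and 3 fell, 0 rose and 21 did not pass, or 12.5% lower against 4.52% of all genes. Aass, which opens lysine breakdown upstream of Aldh7a1, was at 3.97 ± 0.29 log2 CPM in KO (SD, n = 7) and 4.54 ± 0.11 in WT (SD, n = 5), a difference of -0.58 (SE 0.12, limma adjusted p = 0.0120). Hacl1, a peroxisomal lyase of fatty acid alpha-oxidation that releases aldehydes, was at 0.11 ± 0.30 in KO and 0.89 ± 0.18 in WT, a difference of -0.78 (SE 0.18, limma adjusted p = 0.0171). Both were lower in every KO library than in any WT library. Bbox1, the last enzyme of carnitine synthesis downstream of Aldh9a1, differed by -0.74 (SE 0.19, limma adjusted p = 0.0270). Its call ended without KO replicate 1 or 2 or WT replicate 2, 3 or 5, with a limma adjusted p of up to 0.0728. With day 10 libraries alone Aass (limma adjusted p = 0.0546), Hacl1 (0.144) and Bbox1 (0.227) did not pass.

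Enzymes that clear carbonyls by other chemistry gave 0 higher and 2 lower of 21 measured genes of 28 listed, or 9.52% lower against 4.52% of all genes. Akr1e1, an aldo-keto reductase, was at 1.76 ± 0.28 log2 CPM in KO (SD, n = 7) and 2.51 ± 0.14 in WT (SD, n = 5), a difference of -0.75 (SE 0.14, limma adjusted p = 0.00522). Hagh, the glyoxalase that completes methylglyoxal clearance, was at 4.02 ± 0.09 in KO and 4.33 ± 0.05 in WT, a difference of -0.30 (SE 0.06, limma adjusted p = 0.00987). Neither gene had any KO library within the WT range. With day 10 libraries alone Hagh did not pass (limma adjusted p = 0.106).

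Some markers of cell types differed in RNA level between the groups. The counts below stand against 4.84% higher and 4.52% lower of all genes. The part of cell makeup in these results was not tested. Of 8 markers of secretory and luminal cells 3 rose and 0 fell, and their mean score lay from 0.22 to 0.49 log2 in KO, against -0.07 to 0.12 in WT. Their median difference was 0.15 log2. Among them Krt19 rose by 1.88 log2 and Elf5 differed by -0.25 (limma adjusted p = 0.114). Csn2 and Wap, the milk protein genes that define the tissue, held the same value in all libraries. The values were made equal in distribution between libraries, so a gene of the same rank gets the same value. That equality therefore cannot show whether their RNA changed. Of 9 basal and myoepithelial markers 5 rose and 0 fell, and their summed level ran from 489 to 748 CPM in KO and from 451 to 591 CPM in WT. Of 8 macrophage markers 3 rose and 0 fell, at 78.7 to 170 CPM in KO and 73.8 to 90.1 CPM in WT. Of 8 skeletal muscle markers 0 passed in limma, none of them with an unadjusted p under 0.05, although their sum reached 1392 CPM in KO, against at most 395 CPM in WT. Adipocyte markers gave 1 of 8 higher (356 to 638 CPM in KO, 361 to 580 CPM in WT), fibroblast markers 1 of 7 higher (150 to 406 CPM in KO, 147 to 215 CPM in WT) and endothelial markers 1 of 6 lower (37.9 to 66.6 CPM in KO, 46.6 to 76.8 CPM in WT). Of 8 lymphocyte markers Jchain alone was in the table, at 4.79 to 44.7 CPM in KO and 9.53 to 33.8 CPM in WT.

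Several members share exon sequence with genes on the other strand, and the sources used here do not say whether the counting used strand. Counted over exons of all annotated transcripts, Aldh6a1 shares 1078 bases with Bbof1, and Aldh5a1 shares 796 with 4932702P03Rik. Aldh7a1 shares 300 with Phax, Aldh16a1 shares 149 with Pih1d1, and Aldh2 shares 130 with Gm42879. The exon lengths of these members are 3399, 5647, 4255, 3883 and 4155 bases in that order. Those lengths cover basic protein-coding transcripts only, a narrower set of exons, so no share of them is given. Reads of each pair cannot be told apart without strand. Phax differed by -0.10 log2 (SE 0.10, limma adjusted p = 0.572) and Pih1d1 by 0.07 (SE 0.11, limma adjusted p = 0.734), and the other partners are not among the genes of the table.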

How the data were processed

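The authors deposited 1 table of 11834 genes. Its 12 library columns hold log2 CPM as voom gives it, per the file headers and values. These deposited log2 values are quantile-normalized, since 67.1% of ranks differ by less than 0.01 log2 between libraries. Beside these stand the authors' log2 fold change, a score that is the authors' moderated t statistic, a signed fold change (a score), and the authors' p-value and adjusted p-value. Per the submitters' processing notes, reads passed through STAR 2.5.2b, RSEM 1.3.0, Trimmomatic 0.33, bcl2fastq 2.17 and limma 3.34.5, listed without an order, and the builds named were mm10 and hg19. The sources used here state neither the gene filter nor the role of each build.

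The deposited values were fitted by genotype with limma 3.58.1 in R 4.3.3 (eBayes with trend and robust options). The two-sided p-values were corrected over all 11834 genes by Benjamini-Hochberg, and called genes have an adjusted p under 0.05. The SE is that of the moderated fit, and the SD is between libraries. Read counts were not given, so no counting interval is printed. Approximate depth is the inverse of the median step between values, from 0.5 to 8 CPM, held by 8 or more genes of that library. Exon lengths and coordinates are from GENCODE M21 (mm10), joined by symbol, over protein-coding transcripts of the basic set. Start-site sequences are from RefSeq (GRCm38.p6). Python 3.11.15 and matplotlib 3.10.9 were used for the joins and figures.

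The members, the 5 gene lists and the marker lists were chosen with earlier results of these data known. Named genes are Btn1a1, the 9 members, all other measured aldehyde dehydrogenases, and from each other list up to 4 called genes per direction, others being marked as named later. In the branched-chain list 1 gene is counted but not reported here. On simulated data the fit recovered 85 of 100 genes changed by 1 log2 and 49 of 100 changed by 0.5, with 3 false calls among 11834 genes. Alternatives were a replicate block, lactation day, day 10 libraries alone, eBayes options, a low-value filter, median centring, cyclic loess, the authors' statistics and leaving out each library.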

Additional observations from a re-analysis of the deposited data

Results flagged for a closer look

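In 4 of 56 sets of values, a gene in 1 group, a single library stood apart from the others by Dixon's ratio at the 95% level, where chance gives about 1 in 20. Aldh5a1 was lowest in KO replicate 3, the gland of day 8, at 1.19 log2 CPM, against 1.49 to 1.67 in the other KO libraries. Akr1e1 was lowest in WT replicate 3 at 2.28 log2 CPM, against 2.54 to 2.62 in the other WT libraries. Mut was highest in WT replicate 4 at 5.14 log2 CPM, against 4.97 to 4.98 in the other WT libraries. Btn1a1 was highest in WT replicate 3 at 11.23 log2 CPM, while the other WT libraries all held 11.03. Values were made equal in distribution between libraries, so this tie is one of rank. The flag on Btn1a1 thus rests on a different rank in WT replicate 3.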

How the results depend on the processing

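Whether replicate numbers pair the libraries is not settled here. Same-numbered KO and WT libraries correlated from -0.17 to 0.21 in their deviations from the group means. Of 10 libraries 4 correlated best with their own number, those of replicates 4 and 5. Counts of members called are given for completeness, since the members were chosen on this contrast. All libraries gave 1 higher and 4 lower of the 9, against 4.84% higher and 4.52% lower of all genes. A replicate block takes no group difference from KO replicates 6 and 7, which have no WT library of their number. With a replicate block the members called were 1 higher and 3 lower, against 584 higher and 499 lower of the 11834 genes. In that fit the members' median difference was -0.14 log2, retinoid genes called higher went to 1 and other carbonyl-clearing enzymes called lower to 4. Day 10 libraries alone (5 KO, 3 WT) gave 164 genes higher and 104 lower over all genes, 0 members higher and 1 lower. They gave 2 lower among the other aldehyde dehydrogenases, 0 higher among retinoid genes, 1 lower among carbonyl-clearing enzymes, 0 lower in branched-chain breakdown, 1 lower among genes of the other members' routes, and a difference of 0.14 log2 for Aldh5a1. Fewer samples enter that fit. Without trend and robust options 1 retinoid gene was higher. The filter on low values left 0 members higher, since Aldh1a3 is not tested there. With day as a covariate 1 carbonyl-clearing enzyme was higher, and the authors' deposited table has 5 genes of the other members' routes lower. For these the cause was not tested. Leaving out 1 library gave 316 to 670 genes higher and 243 to 657 lower over all genes, 1 member higher and 2 to 4 lower (2 without WT replicate 1, 2 or 3), 0 to 2 retinoid genes higher and 1 to 2 lower, 0 to 1 carbonyl-clearing enzymes higher, and 4 to 9 genes lower in branched-chain breakdown. No difference of Aldh2, Aldh3a2, Aldh6a1, Aldh7a1 or Aldh1a3, or of a named gene of a list changed sign under the 20 alternatives. A pseudocount does not apply to log2 values, and the low members, Aldh3b1 and Aldh1a3, are limited by depth.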
